A study of Mus musculus with 2 samples.

Results

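The Sonic hedgehog pathway genes examined here are Shh, Ptch1, Smo, Gli1, Gli2, Gli3, Hhip, Sufu and Boc, 9 of the 43346 Ensembl genes measured. They were chosen by name, for their known place in the pathway, and all 9 were found by Ensembl identifier in both gene tables. The tissue was midbrain of healthy B6NCrl mouse embryos at embryonic day 16.5. It was taken as pools of both sexes and profiled by total RNA-seq from 10 ng of RNA longer than 200 nt. There was 1 group of 2 libraries, called replicate 2 (a pool of 37 embryos) and replicate 1 (a pool whose number of embryos the labels do not give), and the labels give both the same donor identifier. No treatment, mutant or other age was compared, so the comparisons below are between genes and between the 2 pools, without p-values.

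Sonic hedgehog is a secreted signal made in the ventral midline of the neural tube, where it patterns the ventral midbrain and sustains progenitor division. Without ligand, the receptor Ptch1 at the primary cilium holds the membrane protein Smo inactive, and Gli3 in particular is cut into a repressor of transcription. Ligand releases Smo, full-length Gli proteins act as activators, and Gli1, Ptch1 and Hhip are themselves induced, of which Ptch1 and Hhip then dampen the signal.

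Levels are in TPM (an abundance per length of transcript, scaled to a fixed total in each library, so that genes can be compared with each other), and ± stands between a mean and its SD over both libraries (n = 2). Expected counts (estimated reads per gene) came to a total of 36576263 for replicate 2 and 31830355 for replicate 1. At these depths 1 read on 1 kilobase of effective length was worth 0.0464 TPM in replicate 2 and 0.0540 TPM in replicate 1. Of 10 genes that mark midbrain tissue, 9 reached 1 TPM in both libraries, led by Gata3 at 74.3 ± 4.07 TPM and Otx2 at 60.4 ± 5.76 TPM. En2, a factor of the midbrain and hindbrain border, had 0.46 TPM in replicate 2 and 0.61 TPM in replicate 1. Of 10 markers of the diencephalon, the neighbouring region, 9 also reached 1 TPM in both libraries.

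Sequences in 3 sets are shown for transcript forms and for the most variable gene. One set shows the Ptch1 forms, whose first exons differ and join the same second exon (chr13:63563623-63563815 in GRCm38, minus strand). Capitals mark the last 15 bases of each first exon and lower case the first 15 bases of the shared exon.
Ptch1-202: CCGAGCACAAATAGTgggaaggctactggc
Ptch1-204: CTGAGGCCGGCTATGgggaaggctactggc
Ptch1-205: ACCCGCGGCGACAGGgggaaggctactggc
Ptch1-201: GAGCAGATTTCCAAGgggaaggctactggc
Another set shows the point at which a Gli3 form with a retained intron parts from the coding form, after the base at position 15662530 of chromosome 13 (GRCm38, plus strand). Lower case marks the last 15 bases of the spliced exon 10, and capitals mark what follows, which is exon 11 in Gli3-201 and intron in Gli3-203.
Gli3-201: gatcagcttgtgcatCATATCAATAATGAC
Gli3-203: gatcagcttgtgcatGTAAGTGGCTGCTGT
Last comes the stretch of 250 bases before the RefSeq start of Hhip (chr8:80058009-80058258 in GRCm38.p6, minus strand), shown because Hhip differed most between the pools. Capitals mark the letters TGACGTCA, the cAMP response element.
Hhip: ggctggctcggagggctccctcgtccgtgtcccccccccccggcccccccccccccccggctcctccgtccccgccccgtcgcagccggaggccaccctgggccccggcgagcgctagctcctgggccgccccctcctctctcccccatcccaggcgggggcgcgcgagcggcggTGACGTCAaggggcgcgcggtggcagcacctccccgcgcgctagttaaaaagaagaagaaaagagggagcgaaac

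The 9 genes were expressed at low to moderate levels, with the intracellular inhibitor Sufu highest and Gli2, Gli1 and the ligand Shh at the low end. Of the 9, 6 reached 1 TPM in both libraries, the level called detected here, and 62.1% of all 21474 protein-coding genes did so, so the count is near that of genes at large. Their median level was 4.49 TPM in replicate 2 and 4.41 TPM in replicate 1 (4.45 ± 0.057), against 5.29 TPM over all protein-coding genes and 20.3 TPM over those detected. Gli2, Gli1 and Shh were the 3 genes below 1 TPM in both libraries, and Sufu was the single gene at 10 TPM or more.

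Shh (ENSMUSG00000002633, chr5:28456815-28467256, minus strand), the ligand, had 0.70 TPM in replicate 2 and 0.82 TPM in replicate 1. These levels rest on 39.19 expected counts in replicate 2 and 39.41 in replicate 1, which have the same exact 95% Poisson interval, 27.7 to 53.3. The level lay above that of 35.2% of protein-coding genes. The log2 ratio between the pools was -0.19, with a counting interval of -0.86 to 0.50 that spans a change in either direction. Sources of Shh in the embryonic brain are narrow: the floor plate and adjoining basal plate of the midbrain, and the zona limitans and parts of the hypothalamus in the diencephalon. Floor plate markers summed to 66.7 TPM in replicate 2 and 72.2 TPM in replicate 1, with 2 of 7 counted members higher in replicate 2. Diencephalon markers, led by Tcf7l2 and Lhx9, summed to 874 TPM in replicate 2 and 1183 TPM in replicate 1. Of 9 counted members, 1 was higher in replicate 2. Most of each sum was Tcf7l2 alone, at 681 TPM in replicate 2 and 906 TPM in replicate 1. The median of that list was 14.4 TPM in replicate 2 and 15.3 TPM in replicate 1. No member of either list was at 0 counts, and the part of these regions in the level of Shh was not tested.

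Ptch1 (ENSMUSG00000021466, chr13:63508328-63573598, minus strand), the receptor and a target of the pathway, had 9.08 TPM in replicate 2 and 9.72 TPM in replicate 1. Smo (ENSMUSG00000001761, chr6:29735503-29761365, plus strand), the membrane protein that Ptch1 holds back, had 6.87 TPM in replicate 2 and 6.90 TPM in replicate 1. Both were nearly level between the pools. Ptch1 exceeded Smo in each library, by 0.40 on the log2 scale in replicate 2 and 0.49 in replicate 1 (0.45 ± 0.065, or 1.36-fold). Ptch1 exceeded Shh by 12.4-fold (log2 of Shh over Ptch1 -3.63 ± 0.092).

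Boc (ENSMUSG00000022687, chr16:44485049-44558897, minus strand), a co-receptor that binds the ligand at the cell surface, had 8.81 TPM in replicate 2 and 6.24 TPM in replicate 1. Boc was thus higher in replicate 2, on 822 expected counts there and 500 in replicate 1. Of the other co-receptors, one was lower than Boc in both libraries and one was near it. Cdon, its relative, had 1.70 TPM in replicate 2 and 2.75 TPM in replicate 1, so that Boc exceeded Cdon by 2.37 on the log2 scale in replicate 2 and by 1.18 in replicate 1 (1.78 ± 0.843, or 3.43-fold). Gas1, a membrane-anchored co-receptor, had 8.43 TPM in replicate 2 and 7.76 TPM in replicate 1. The order of Boc and Gas1 was not the same in both libraries, at a log2 ratio of 0.06 in replicate 2 and -0.31 in replicate 1.

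Hhip (ENSMUSG00000064325, chr8:79965851-80058006, minus strand), a membrane glycoprotein that binds hedgehog ligands and keeps them from the receptor, had 4.49 TPM in replicate 2 and 1.73 TPM in replicate 1. Its expected count was 362.9 in replicate 2 and 133 in replicate 1. The deposited credibility intervals of 3.81 to 5.13 TPM in replicate 2 and 1.41 to 2.20 TPM in replicate 1 did not overlap. Relative to Ptch1, another target that binds the ligand, Hhip stood at a log2 ratio of -1.02 in replicate 2 and -2.49 in replicate 1 (-1.75 ± 1.04).

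Sufu (ENSMUSG00000025231, chr19:46396896-46488804, plus strand), which holds Gli proteins in the cytoplasm, had 15.29 TPM in replicate 2 and 18.64 TPM in replicate 1. It was the highest of the 9 genes in both libraries, above 65.9% of protein-coding genes, and exceeded Gli3 by 4.01-fold (log2 2.01 ± 0.105).

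Among the Gli transcription factors, Gli3 (ENSMUSG00000021318, chr13:15463235-15730026, plus strand), the main source of the repressor, was highest at 4.01 TPM in replicate 2 and 4.41 TPM in replicate 1. Gli2 (ENSMUSG00000048402, chr1:118834132-119053619, minus strand), the main primary activator, had 0.90 TPM in replicate 2 and 0.92 TPM in replicate 1. Gli1 (ENSMUSG00000025407, chr10:127329882-127341974, minus strand), an activator whose own transcription depends on the signal, had 0.83 TPM in replicate 2 and 0.82 TPM in replicate 1. Gli3 thus exceeded both, and neither library had Gli1 above Gli2. The excess of Gli3 was 5.10-fold over Gli1 (log2 2.35 ± 0.109) and 4.62-fold over Gli2 (log2 2.21 ± 0.075). Gli2 over Gli1 was 0.14 ± 0.035 on the log2 scale, on 119 and 64 expected counts in replicate 2 and 111 and 54 in replicate 1. These levels of RNA do not tell how much of the Gli3 protein was cut.

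The level of Gli2 depends on the estimate used. Its deposited credibility interval ran from 1.20 to 2.57 TPM in replicate 2 and from 1.24 to 2.50 TPM in replicate 1, in both libraries above the TPM of the gene itself. The posterior mean, the other estimate in the deposited tables, was 1.83 TPM in replicate 2 and 1.84 TPM in replicate 1. Gli2 has 9 annotated transcripts, 7 of them without any count in either library, and the posterior mean gives each of those a small TPM. With the posterior mean Gli2 counts as detected, and Gli3 over Gli2 is 1.25 on the log2 scale in place of 2.21.

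By mean TPM the order was Sufu, Ptch1, Boc, Smo, Gli3, Hhip, Gli2, Gli1 and Shh. The ranges of the replicates overlapped between Boc and Smo, between Gli3 and Hhip and between Gli1 and Shh, so these neighbours were not told apart. Ptch1 and Boc did not overlap, but their means differed by 1.88 TPM, close to the SD of 1.82 TPM for Boc. Likewise the means of Hhip and Gli2 differed by 2.20 TPM beside an SD of 1.95 TPM for Hhip. The ranges of Gli2 and Gli1 did not overlap, but their means differed by only 0.085 TPM. The deposited credibility interval of Gli1 was 0.63 to 1.03 TPM in replicate 2 and 0.60 to 1.02 TPM in replicate 1. It held the TPM of Gli2 in both libraries, so by TPM alone the order of Gli2 and Gli1 is not settled. The credibility interval of Gli2, 1.20 to 2.57 TPM in replicate 2 and 1.24 to 2.50 TPM in replicate 1, lay above that of Gli1. With posterior means log2 of Gli2 over Gli1 was 1.17, in place of 0.14 with TPM. No estimate put Gli1 higher, and the size of the difference depends on the estimate.

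**Figure D1:**
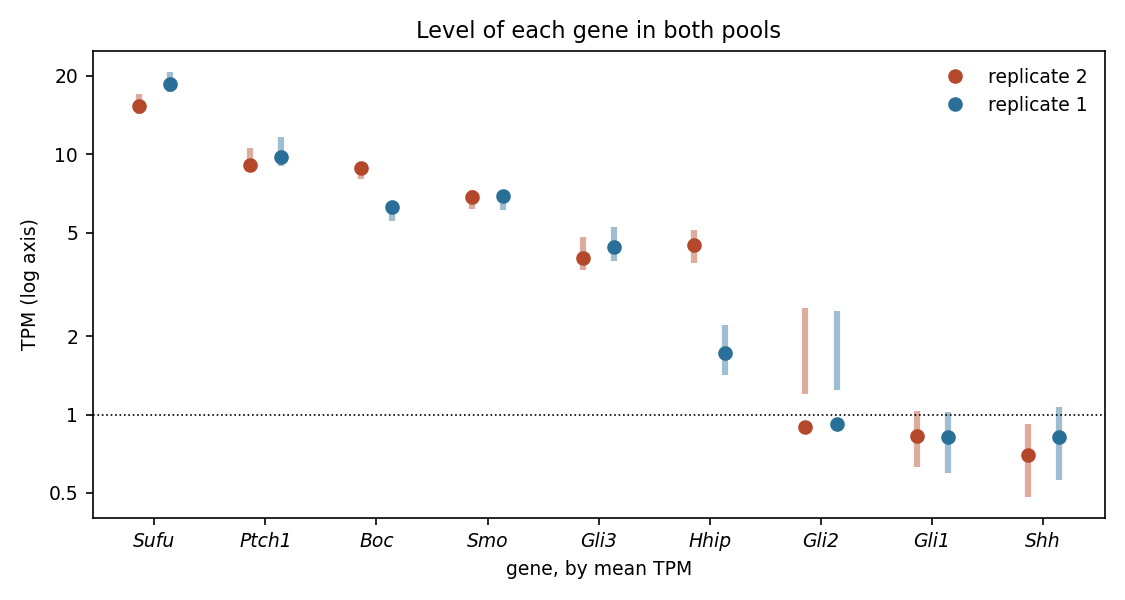
Level of each of the 9 genes in TPM on a log axis, with replicate 2 left of replicate 1. Points are the deposited TPM, bars the deposited credibility intervals and the dotted line 1 TPM: the intervals of Hhip and Boc (higher in replicate 2) and of Sufu (lower in replicate 2) do not overlap between the pools, Gli2 lies below its own intervals, and Gli2, Gli1 and Shh lie below 1 TPM.

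Between the pools, Hhip was the 1 gene of the 9 that passed 2-fold, and 7 of the other 8 differed by less than 0.2 on the log2 scale. The ratio is that of expected counts, scaled to the composition of the libraries, as log2 of replicate 2 minus replicate 1, and its interval covers counting error only. Hhip had a log2 ratio of 1.26 (0.98 to 1.56), or 2.40-fold higher in replicate 2. It ranked number 27 of the 14412 genes whose expected count averaged 50 or more. Of those genes 0.354% were at least 2-fold higher in replicate 2 and 0.291% at least 2-fold lower, and none of the 9 was 2-fold lower. At 1.5-fold the count was again 1 higher, Hhip, and 0 lower, beside 2.12% and 1.33% of the 14412 genes. Of the 9 genes, 8 passed the minimum count and Shh did not.

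Boc came next, with a log2 ratio of 0.53 (0.37 to 0.70), or 1.45-fold, which lies inside 1.5-fold, and 2.66% of the 14412 genes had a higher ratio. The ratio of Sufu was -0.19 (-0.30 to -0.08), an interval that does not reach 0. The intervals of Gli1 (0.06), Smo (0.03), Ptch1 (0.03), Gli3 (0.01), Gli2 (-0.08) and Shh (-0.19) all include 0. For Gli1 the interval ran from -0.48 to 0.61 and for Shh from -0.86 to 0.50, so small differences in these genes were not detectable at this depth. The median over the 9 genes was 0.03, beside 0.01 over the 14412 genes.

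**Figure D2:**
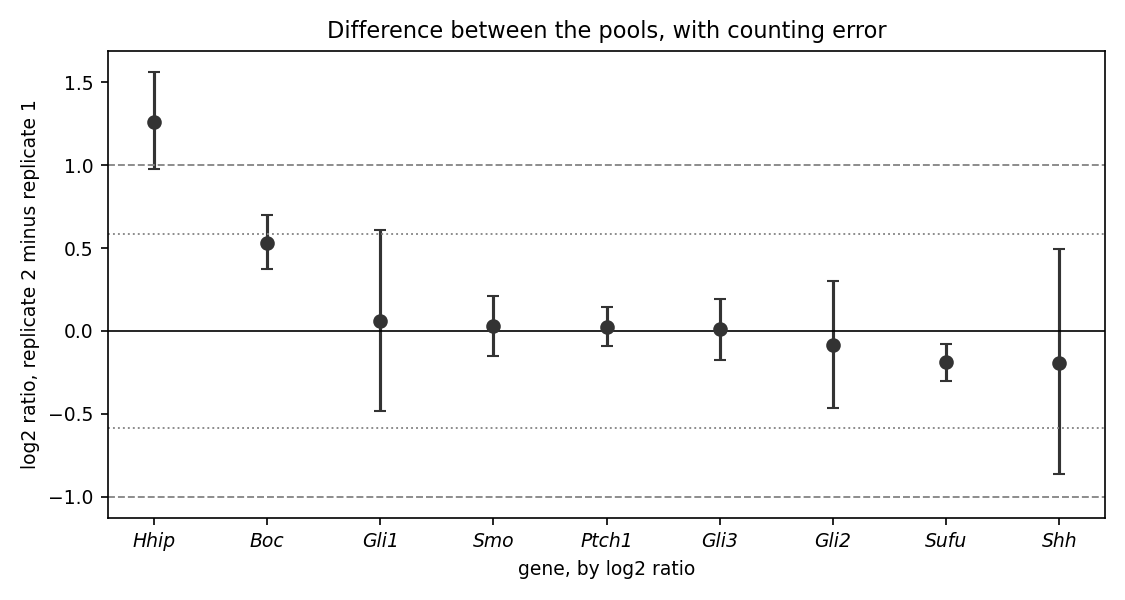
Log2 ratio between the pools, replicate 2 minus replicate 1, for each of the 9 genes, with 95% intervals for counting error. Dashed lines mark 2-fold and dotted lines 1.5-fold: Hhip lies beyond the dashed line at 1.26, Boc just inside the dotted line at 0.53, and the other 7 genes lie near 0.

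Markers of several cell types also differed between the pools. Astrocyte markers, led by Apoe and Sparcl1, summed to 1055 TPM in replicate 2 and 634 TPM in replicate 1. Much of each sum was Apoe alone, at 566 TPM in replicate 2 and 296 TPM in replicate 1. The median of that list was 39.7 TPM in replicate 2 and 27.3 TPM in replicate 1. Of the 8 with enough counts, 7 were higher in replicate 2, at a median log2 ratio of 0.62, whereas 7478 of the 14412 genes at large were higher in replicate 2. Markers of oligodendrocyte precursors, led by Olig1 and Pdgfra, summed to 143 TPM in replicate 2 and 108 TPM in replicate 1, and all 6 were higher in replicate 2 (median 0.31). Markers of dividing cells, led by Pcna and Cdk1, summed to 197 TPM in replicate 2 and 248 TPM in replicate 1, and none of the 8 was higher in replicate 2 (median -0.37). For progenitors and radial glia, led by Fabp7 and Vim, the sums were 2288 TPM in replicate 2 and 2087 TPM in replicate 1, with 4 of 9 higher in replicate 2 (median -0.24). Mural and meningeal markers, led by Col3a1 and Col1a1, summed to 319 TPM in replicate 2 and 305 TPM in replicate 1, with 2 of 9 higher (median -0.04). The floor plate markers, led by Spon1 and Ntn1, had a median of -0.34, and the diencephalon markers one of -0.33, whereas the midbrain markers had one of 0.19 with 7 of 9 higher in replicate 2. No gene of these lists was at 0 counts. The part of these differences in the ratios of Hhip and Boc was not tested, and in bulk tissue fewer cells of a type and less RNA per cell cannot be told apart.

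**Figure D3:**
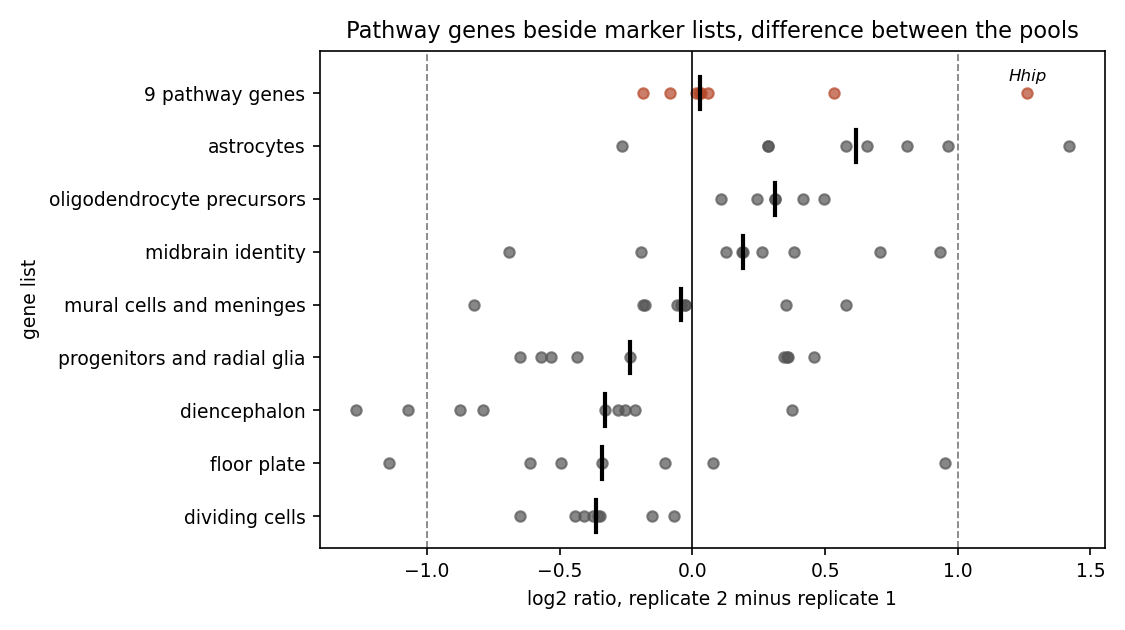
Log2 ratio between the pools, replicate 2 minus replicate 1, for the pathway genes and for 8 marker lists. Each point is a gene whose expected count averaged 50 or more, black bars are medians and dashed lines mark 2-fold: Hhip at 1.26 lies to the right of the other 7 pathway genes shown, and the astrocyte list has the highest median at 0.62.

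The stretch before the start of Hhip holds the palindrome TGACGTCA once, with its first base 75 bases before the start, in a sequence of 76% G and C. These letters were chosen after the stretch had been read. On either strand they stand in 588 of 32851 RefSeq promoter windows of 300 bases (1.79%), and in 1 of the 6 windows matched to the pathway genes, for Gli2, Gli3, Hhip, Ptch1, Smo and Sufu. Of the 95 genes with a window in all lists used here, Pax6, Prkar1a and Th also held them. Their log2 ratios between the pools were -0.43 for Pax6, -0.03 for Prkar1a and 0.71 for Th. A link between these letters and the ratios was not tested. The Gli binding motif GACCACCCA, searched on both strands, stands in 83 of the 32851 windows (0.253%) and in none of the 6. A match is a description of letters in a window, and the lack of one says nothing about sites elsewhere.

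For Ptch1, Gli3, Hhip and Sufu, a coding transcript held the highest share in both libraries. For Ptch1 it was Ptch1-202, with a share of 75.91% of the gene's TPM in replicate 2 and 71.47% in replicate 1 (73.7% ± 3.14). Ptch1-204, marked in the annotation as a target of nonsense-mediated decay, had 12.7% ± 0.523. A form of 305 bases that is not in GENCODE M21 held 2.89% in replicate 2 and 7.05% in replicate 1 (4.97% ± 2.94), on 1.16 expected counts in replicate 2 and 2.61 in replicate 1. Ptch1-205, a model of 1123 bases, had 3.55% ± 0.629, on 6.22 expected counts in replicate 2 and 7.34 in replicate 1. Ptch1-201 had 2.68% ± 0.700, on more expected counts, 47.29 in replicate 2 and 29.91 in replicate 1. Ptch1-202 and Ptch1-204 ranked first and second in both pools. The first exon of Ptch1-202 lies at chr13:63564458-63564535, 1200 bases downstream of the start of Ptch1-201, which is also the RefSeq start. The first exons of Ptch1-204 (chr13:63573092-63573460) and Ptch1-205 (chr13:63573250-63573598) lie upstream of both and overlap each other. Ptch1-202 also lacks 419 bases near its 3′ end (chr13:63511113-63511531) that Ptch1-201 and Ptch1-204 hold in their last exon. Which reads decided the split between first exons and 3′ ends cannot be told from these tables.

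For Gli3, the coding form Gli3-201 held 65.71% in replicate 2 and 56.81% in replicate 1 (61.3% ± 6.29). Gli3-203, which runs on into the intron after exon 10 as shown above and is annotated as a retained intron, held 12.78% in replicate 2 and 23.04% in replicate 1 (17.9% ± 7.25). Gli3-203 was thus lower in replicate 2, on 31.13 expected counts there and 52.96 in replicate 1. In total RNA, these counts do not tell a retained intron from RNA not yet spliced. Gli3-202, a shorter coding form, held 20.8% ± 0.969. A processed transcript on the opposite strand, Gm6556, overlaps Gli3 and had 12.69 expected counts in replicate 2 and 19.42 in replicate 1. Whether the strand was used in counting is not given in the sources used here.

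Hhip-201, the coding form of Hhip, held 347.21 expected counts in replicate 2 and 130.77 in replicate 1. Its level was 3.59 TPM in replicate 2 and 1.58 TPM in replicate 1. Its share was 79.99% in replicate 2 and 91.37% in replicate 1. The non-coding Hhip-202, a processed transcript, held the rest, on 15.69 expected counts in replicate 2 and 2.23 in replicate 1. Its level was 0.90 TPM in replicate 2 and 0.15 TPM in replicate 1. Both forms were thus higher in replicate 2. The files' model of Hhip-201 has 4582 bases, whereas GENCODE M21 gives it 9074, so reads from the added bases were not assigned to it here. For Sufu, Sufu-201 held 79.2% ± 3.37 and Sufu-202 12.9% ± 2.84, both coding. Gli2-201 held 92.35% in replicate 2 and 100% in replicate 1, but 41.95% in replicate 2 and 46.07% in replicate 1 by the posterior mean. All Boc counts stood on 1 of its 2 transcripts, which is not in GENCODE M21, and Shh, Smo and Gli1 have 1 transcript each in these files.

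**Figure D4:**
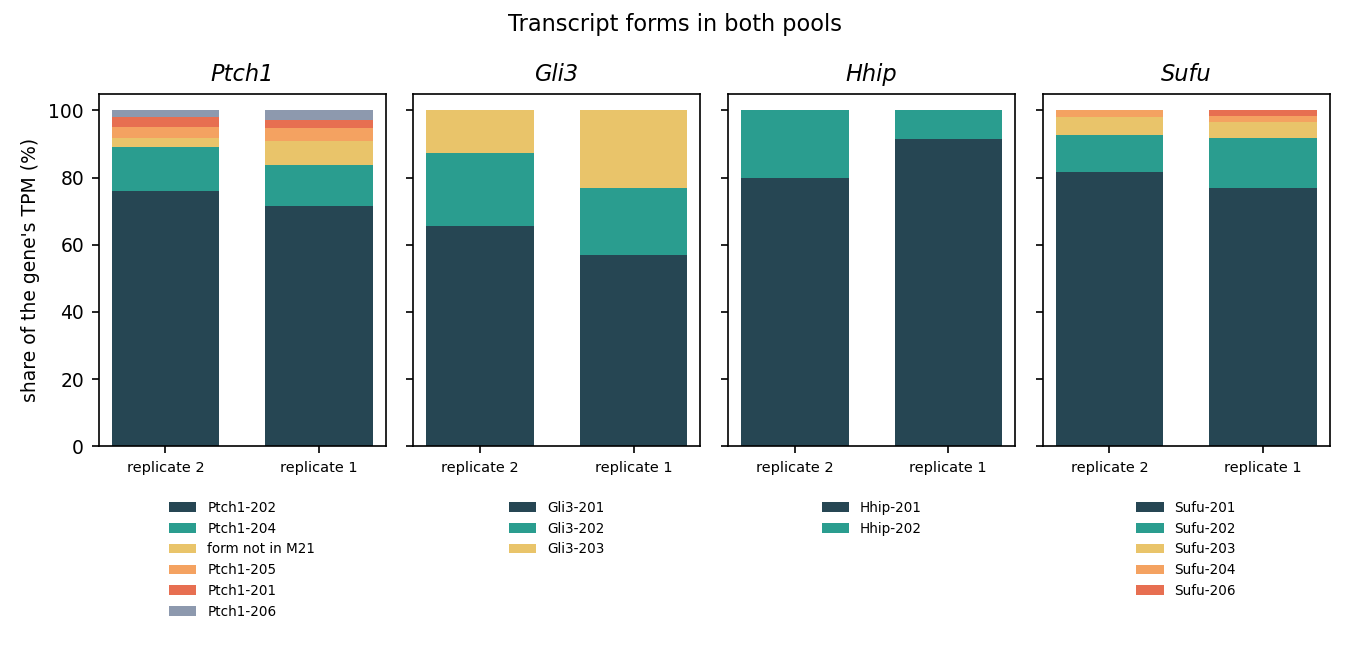
Share of each transcript in the TPM of Ptch1, Gli3, Hhip and Sufu in percent, with replicate 2 left of replicate 1 in each panel. The bottom segment is the coding form with the highest mean share: for Ptch1 it held 75.91% in replicate 2 and 71.47% in replicate 1, and the retained-intron form Gli3-203 (top segment of Gli3) held 12.78% in replicate 2 and 23.04% in replicate 1.

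Other genes can share reads with the 9 where they overlap. Arhgap9, on the opposite strand to Gli1, had 23 expected counts in replicate 2 and 11 in replicate 1, beside 64 for Gli1 itself in replicate 2 and 54 in replicate 1. For Shh, the opposite-strand genes Gm26894, with 8.75 counts in replicate 2 and 12.59 in the other library, and 9530036O11Rik, with 3.05 in replicate 2 and 6 in replicate 1, overlap a gene of about 39 counts. On the same strand, A930032L01Rik overlaps Ptch1, with 15 expected counts in replicate 2 and 14 in replicate 1. Gm13717 overlaps Smo on the same strand, with 2 in replicate 2 and 6 in replicate 1. All these overlaps are of whole gene spans, and overlap of exons was not examined. Where exons overlap, reads of opposite-strand pairs cannot be assigned with certainty without the strand of counting.

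Beyond the 9 genes, 44 others of the pathway were described by role, and 38 of them reached 1 TPM in both libraries, beside 62.1% of protein-coding genes. Of the 40 with enough counts, none was 2-fold higher and 1 was 2-fold lower in replicate 2, beside 0.354% and 0.291% of the 14412 genes. At 1.5-fold 2 were higher and 2 lower, beside 2.12% and 1.33%, and the median log2 ratio was -0.05.

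Of 8 other ligands and genes for the release and transport of ligand, 6 were detected. Disp2, a relative of the ligand exporter Disp1, was highest at 64.09 TPM in replicate 2 and 60.72 TPM in replicate 1. Ihh, the Indian hedgehog ligand, was lowest at 0.14 TPM in replicate 2 and 0.27 TPM in replicate 1, on 7 expected counts in replicate 2 and 12 in replicate 1. Scube2, a secreted carrier that helps lipid-bearing ligand leave the cell, was the gene 2-fold lower in replicate 2, with 1.00 TPM there and 2.42 TPM in replicate 1. Its log2 ratio was -1.16 (-1.60 to -0.74). Of the list's 6 genes with enough counts, 2 were higher and 4 lower in replicate 2, and Scube2 alone passed 1.5-fold.

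Of 5 other receptors and surface proteins, 4 were detected and none passed 1.5-fold. Gpc3, a glypican known to bind hedgehog ligands, was highest at 41.08 TPM in replicate 2 and 41.66 TPM in replicate 1. Lrp2, a large endocytic receptor of the ventral neuroepithelium, was lowest at 0.48 TPM in replicate 2 and 0.74 TPM in replicate 1.

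All 12 genes that carry or regulate the signal at the primary cilium were detected, and none passed 1.5-fold. Kif3a, a motor subunit of transport within cilia and along axons, was highest at 289.23 TPM in replicate 2 and 305.13 TPM in replicate 1. Kif7, a kinesin-like protein that acts with Gli proteins at the cilium tip, was lowest at 1.54 TPM in replicate 2 and 1.10 TPM in replicate 1. All 11 kinases and ubiquitin ligase subunits that act on Gli proteins were detected too, again with none past 1.5-fold. Prkar1a, a regulatory subunit of protein kinase A, was highest at 448.11 TPM in replicate 2 and 468.35 TPM in replicate 1, and Dyrk2 lowest at 9.31 TPM in replicate 2 and 9.90 TPM in replicate 1. These enzymes also serve many other pathways.

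Of 8 genes of ventral patterning or growth known to be induced by the signal, 5 were detected. Mycn, a driver of progenitor growth, was highest at 46.96 TPM in replicate 2 and 56.20 TPM in replicate 1. Nkx2-9, a homeobox gene of the early ventral neural tube, had 0 counts in both libraries, which allows up to 0.119 TPM in replicate 2 and 0.139 TPM in replicate 1 (3 counts). Foxa2, a factor of the floor plate and of dopamine neurons, had 3.43 TPM in replicate 2 and 1.59 TPM in replicate 1, a log2 ratio of 0.95 (0.50 to 1.43). Foxa1, its relative with a shared role, went the other way, with 0.95 TPM in replicate 2 and 1.49 TPM in replicate 1 and a log2 ratio of -0.61 (-1.11 to -0.13). Nkx6-2, a homeobox gene of ventral progenitors, had 3.73 TPM in replicate 2 and 2.09 TPM in replicate 1, a log2 ratio of 0.90 (0.45 to 1.35). The list therefore did not move one way. Foxa1 and Foxa2 also stand in the floor plate list, so the lists share these values.

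**Figure D5:**
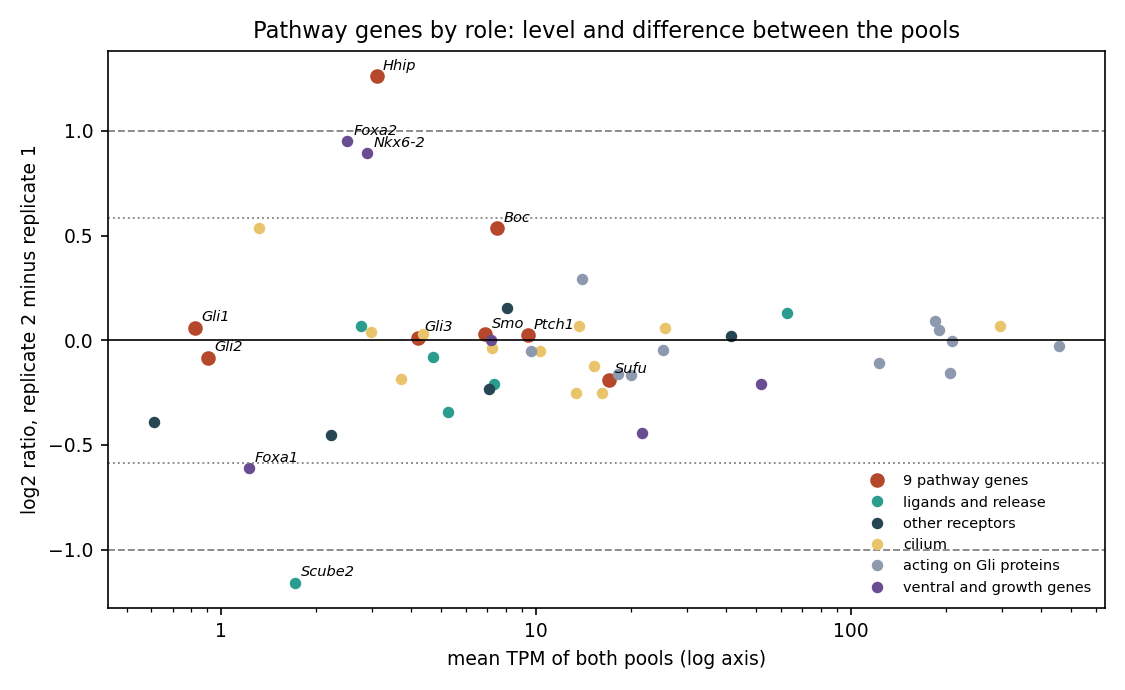
Mean TPM on a log axis against the log2 ratio between the pools, replicate 2 minus replicate 1, for pathway genes whose expected count averaged 50 or more, coloured by role. Dashed lines mark 2-fold and dotted lines 1.5-fold: Hhip (1.26) and Scube2 (-1.16) lie beyond 2-fold, Foxa2, Nkx6-2 and Foxa1 beyond 1.5-fold, and no gene acting on Gli proteins passes 1.5-fold. Shh, below the minimum count, is not shown.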

How the data were processed

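Per the labels' protocols and the file headers, total RNA with spike-in sequences was profiled and quantified on mm10 with GENCODE M4. Neither aligner nor quantifier is given in the sources used here. Per the file headers, the deposited expected count is an estimate of the reads of each gene or transcript, not normalized, and the deposited TPM is corrected for effective length and scaled to 1 total per library. Spike-ins took 5.47% of TPM in replicate 2 and 3.74% in replicate 1. The deposited isoform share is a percent of the TPM of the gene. Credibility intervals are the authors' own, and their level is not stated.

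Names, types and coordinates came from GENCODE M21 (GRCm38, the assembly of mm10) by Ensembl identifier, and some transcripts differ in length between the releases, among them the forms of Shh, Gli1, Hhip and Boc. Promoter windows, of 250 bases before to 50 after a start, are from RefSeq (GRCm38.p6). Ratios between pools are log2 of expected counts with 0.5 added, with exact binomial 95% intervals. They were scaled by TMM (edgeR 4.0.16) on rounded expected counts over all Ensembl genes, without the spike-ins and other entries. Size factors from DESeq2 1.42.0, total counts, the TPM ratio, 5 added to counts and posterior means were tried as alternatives. Intervals and floors cover counting error only. The steps for ratios were tested on simulated data. Calculations used R 4.3.3, Python 3.11.15, pandas 2.3.3, scipy 1.17.1 and matplotlib 3.10.9.

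With 1 group of 2 libraries no test was run, and the SD measures the spread between these pools. The members and lists were chosen with earlier results of these data known. Named were all 9 genes, the genes of 10 fixed ratios, and in each of 5 role lists the highest, the lowest, any at 0 counts and any past 1.5-fold whose expected count averaged 50 or more. For the 8 marker lists the rule took the 2 highest and any at 0. En2, Pax6, Th and the overlapping genes were named after their values were seen. A result that the rule takes is not reported here. A planned comparison of the Gli proteins was not done here.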

Additional observations from a re-analysis of the deposited data

How the results depend on the processing

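The number of the 9 genes past 2-fold and past 1.5-fold was 1 under each alternative tried (DESeq2 size factors, total counts, the ratio of TPM, 5 added to counts, posterior mean counts and the minimum count), and the median log2 ratio ran from -0.03 with the ratio of TPM to 0.03. The median of the 14412 genes moved by less than 0.1 between scalings. The median level of the 9 genes, 4.45 TPM, was 4.51 with posterior mean TPM and 4.67 with TPM rescaled without spike-ins, and 4.41 to 4.49 with 1 library left out. The number detected, 6, stayed at 6 with either library left out, was 7 with posterior mean TPM and 1 at a threshold of 10 TPM. Among single values, the ratio of Ptch1 was -0.10 as a ratio of TPM, log2 of Gli2 over Gli1 was 1.17 with posterior means, and the share of Ptch1-202 was 67.2% by posterior means. With expected counts, which are not per length, 8 of the 10 ratios between genes moved by more than their SD. No paired analysis was possible because there is 1 group. Depth limits Shh most, at about 39 counts per library, and no value with 2 pools tells biological from technical spread.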
